A study of Mus musculus with 6 samples.

Results

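Intestinal stem cell genes and Wnt target genes were examined as a set of 33 genes: genes of the stem cells at the crypt base, genes of slow-cycling or reserve stem cells, feedback inhibitors that the Wnt pathway switches on, other Wnt targets and crypt position genes, and the receptor and signal transducers. A gene was measured where a transcript cluster, as the array groups its probes, carried its symbol alone, and the cluster with the highest mean was used. This gave 31 of the 33 genes, out of 22180 symbols with such a cluster; Ephb2 and Tcf7 were not analysed here. The samples were colonic mucosa beside tumours from 6 male BALB/c mice, 1 Affymetrix Mouse Gene 2.0 ST array per mouse. The control group held 4 wild-type mice (WT, Mthfd1S+/+) and the other group 2 heterozygous mice (Mthfd1S+/-), which are deficient in the synthetase activity of the folate enzyme MTHFD1. All 6 mice, WT included, had been injected at 3 months of age with the carcinogen azoxymethane (AOM), 6 mg/kg, and had then been given dextran sulfate sodium (DSS, an agent that damages the colon lining) at 3% in 2 cycles of 4 days, 1 and 4 weeks later, and were killed 13 weeks after AOM. The age field of the labels reads 7 months. No untreated mice were analysed here, so the values describe mucosa after carcinogen and injury. The effect of the allele on the Mthfd1 transcript is not in the labels, nor is whether mice shared a litter or cage. Mice are named by the replicate numbers of the labels, which have no order.

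In the colon, Wnt ligands from cells around the crypt base bind Frizzled and LRP receptors on epithelial cells, which stops the complex of APC and AXIN from degrading beta-catenin. Beta-catenin then enters the nucleus and, with TCF and LEF factors, turns on genes that keep stem cells dividing. R-spondins amplify the signal through LGR4 and LGR5 by removing the ubiquitin ligases RNF43 and ZNRF3, which otherwise clear Frizzled from the surface. Several targets are themselves inhibitors, so their transcripts are widely read as reporters of Wnt activity. Loss of APC is the common entry to colon tumours, and tumours after AOM often carry activated beta-catenin.

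Promoter sequence (RefSeq, GRCm38.p6) was given for 23 of the 33 genes. The 250 bases before each start were searched on both strands for 4 motifs of TCF and LEF factors: CTTTG with AT, AA, TT or TA after it. These motifs cannot overlap one another on the same strand but can on opposite strands. Of these 23 genes, 4 (Sp5, Tnfrsf19, Lef1 and Tcf7l2) held a match in any entry, or 17.4%, against 16.8% of the 27025 genes with an entry. The matches of Sp5, a zinc finger gene that responds directly to Wnt signals, and of Tnfrsf19, a receptor of crypt base cells, are shown as examples. Those of Lef1 and Tcf7l2 are not shown. Capitals mark the motif, and each line runs 5′ to 3′ along the gene's strand. The distal Sp5 site (chr2:70474681-70474727, plus strand) and the Tnfrsf19 site (chr14:61038163-61038209, minus strand) carry their motif on the opposite strand, so the letters shown are its reverse complement, while the proximal Sp5 site (chr2:70474799-70474845, plus strand) carries it on the same strand.
Sp5 distal: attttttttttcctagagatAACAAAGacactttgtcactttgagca
Sp5 proximal: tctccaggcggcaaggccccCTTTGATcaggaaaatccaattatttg
Tnfrsf19: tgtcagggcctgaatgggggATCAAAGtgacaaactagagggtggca

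Of the genes higher in each Mthfd1S+/- mouse than in every WT mouse, 5 had an entry, and 0 of these held a match in this window. Nkd1 and Lrig1 were picked from these 5. The 100 bases before their starts are shown with CG dinucleotides in capitals, and CG counts of other promoters were not computed. The Nkd1 stretch (chr8:88527533-88527632, plus strand) holds 1 CG and the Lrig1 stretch (chr6:94700146-94700245, minus strand) holds 12.
Nkd1: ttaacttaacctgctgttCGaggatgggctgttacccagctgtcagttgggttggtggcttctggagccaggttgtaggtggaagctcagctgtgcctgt
Lrig1: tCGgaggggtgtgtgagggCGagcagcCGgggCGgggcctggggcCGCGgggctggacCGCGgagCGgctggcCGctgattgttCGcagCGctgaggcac

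Array medians lay between 5.485 and 5.532 on the log2 scale over all rows, and correlations between arrays across clusters were 0.991 to 0.9945. The Mthfd1 cluster read 7.64, 7.63, 7.496 and 7.75 in the WT animals and 7.96 and 7.63 in the Mthfd1S+/- animals, a log2 difference of 0.17 ± 0.12 (SE), so this level does not check the genotype labels. The tissue matched its label as far as the 15 epithelial markers go, each with a mean log2 signal of at least 8.83. It also held RNA of smooth muscle: the 12 muscle markers had a mean log2 signal of 10.02 to 10.39 in WT and of 10.22 and 10.67 in Mthfd1S+/- mice. In such bulk tissue, fewer cells of a type and less RNA per cell cannot be told apart.

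None of the 31 genes passed the adjusted threshold of 0.05 in limma, where 0% of 23521 tested clusters did, and the smallest adjusted p of any gene in the set was 0.837. The differences that follow are therefore measurements of these mice, with no gene shown to change. Of the 31 genes, 21 had a higher mean in Mthfd1S+/- mucosa (67.7%, against 54% of all clusters) and 10 a lower one, with a median log2 difference of 0.11 against 0.012 over all clusters. At an unadjusted p under 0.05 stood 6 higher genes, or 19.4%, against a background of 3.36% of all clusters: Nkd1, Wif1, Apcdd1, Prox1, Smoc2 and Lrig1. At the same limit stood 1 lower gene, Msi1, or 3.23% against 2.44%. Both Mthfd1S+/- mice lay above all 4 WT mice in 7 genes (22.6%, background 7.96%), the 6 above and Cd44. Both lay below all WT mice in 3 genes, Msi1, Bmi1 and Tcf7l2 (9.68%, background 6.04%). The set was chosen with earlier results of these data known. Its shares beside the background, here and below, are therefore descriptions and no test of the set. Without Mthfd1S+/- mouse 1 the median was 0.055. Nkd1 then had a log2 difference of 0.56 and Lrig1 0.29, in place of 0.47 and 0.25. Prox1, Smoc2, Apcdd1 and Wif1 fell to 0.25, 0.20, 0.19 and 0.17, from 0.40, 0.38, 0.35 and 0.71. Without WT mouse 1, WT mouse 4 or Mthfd1S+/- mouse 1 the lower count was 0.

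The split of clusters at an unadjusted p under 0.05 depended on scaling and on the rows tested: 58.0% of them were higher in Mthfd1S+/- mucosa as deposited, 71.4% after quantile normalization was repeated and 37.5% after each array was centred on its median. Over all rows of the array 36.0% were higher, and among clusters above the median level 52.6%. Of the 31 genes, 21 were above 0 under both other scalings, with 8 and 6 higher ones at the unadjusted limit and medians of 0.13 and 0.083. Of all 23521 clusters, 1078 and 521 were higher at that limit under these scalings, against 790 as deposited.

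**Figure D1:**
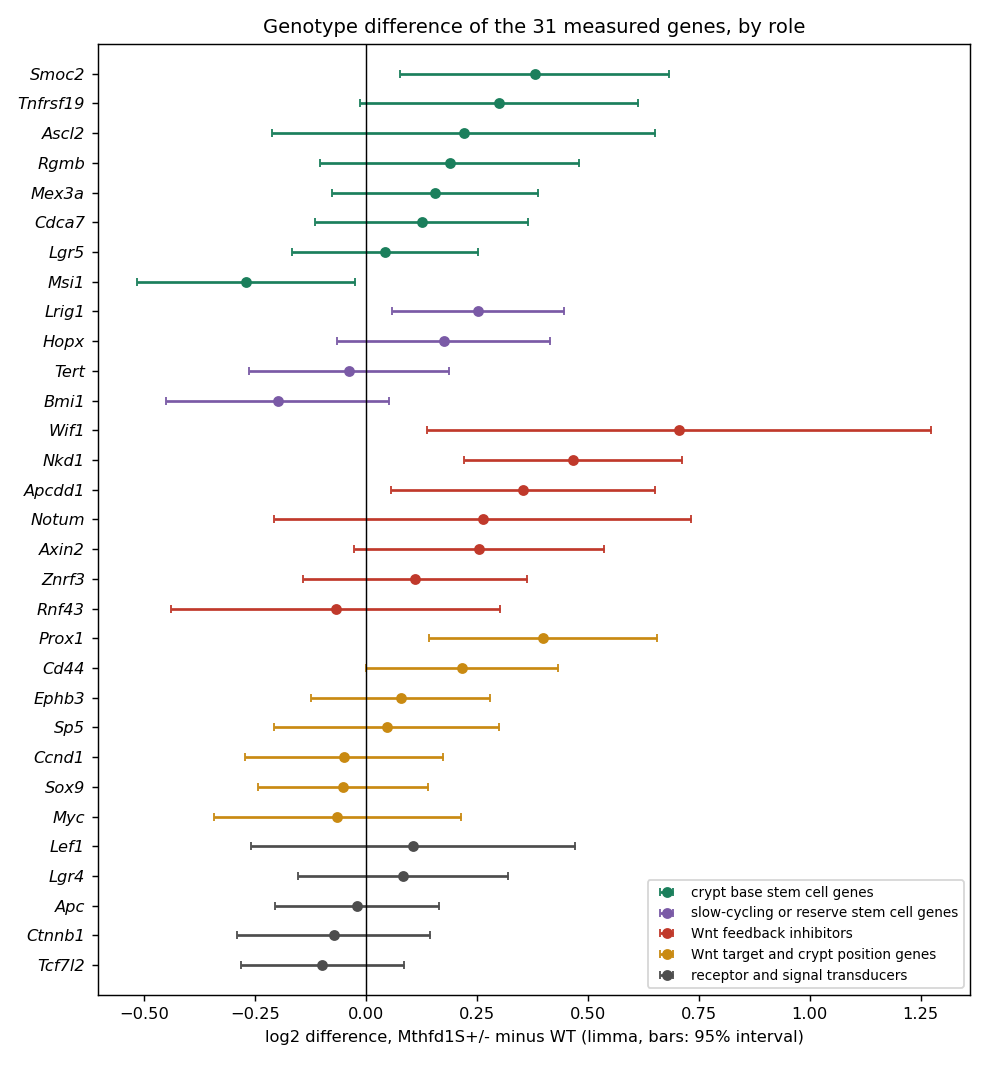
Log2 differences (Mthfd1S+/- minus WT, x axis) of the 31 measured genes with limma's 95% interval as bars, grouped by role in colours. In 24 of 31 genes the interval spans 0; Wif1 has the largest value and the widest interval, and Nkd1 the next largest value.

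The Wnt feedback inhibitors held the largest differences: 6 of 7 were higher in Mthfd1S+/- mucosa, with a median log2 difference of 0.26, and 3 were at an unadjusted p under 0.05, against 54% above 0 and 3.36% higher at that limit over all clusters. Nkd1, a cytoplasmic antagonist that binds Dishevelled and is a Wnt target itself, read 6.85, 6.88, 7.05 and 7.10 in WT mice and 7.34 and 7.53 in Mthfd1S+/- mice. Both Mthfd1S+/- mice lay above every WT mouse by at least the gap between 7.34 and 7.10. The difference was 0.47 ± 0.11 (SE; 95% interval 0.22 to 0.71), or 1.38-fold (adjusted p 0.837 in limma). Nkd1 was the only gene of the set that stayed at an unadjusted p under 0.05 in the same direction in all 16 alternative fits, with values of 0.33 to 0.57. In 2 of these fits 1 Mthfd1S+/- mouse is left, which is assumed to vary like the WT mice.

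Wif1, a secreted protein that binds Wnt ligands, read 6.47, 6.41, 6.21 and 6.30 in WT mice and 7.59 and 6.51 in Mthfd1S+/- mice. Mouse 1 of the Mthfd1S+/- group stood far above the rest, while mouse 2 lay just above the highest WT mouse. The difference was 0.71 ± 0.25 (SE), or 1.63-fold, the only one in the set of at least 1.5-fold, and its adjusted p was 0.837 in limma. Without Mthfd1S+/- mouse 1 it was 0.17, and without mouse 2 it was 1.24.

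Apcdd1, a membrane-bound Wnt inhibitor, read 6.05, 5.89, 6.16 and 5.83 in WT mice and 6.50 and 6.17 in Mthfd1S+/- mice, so that the lower Mthfd1S+/- mouse was barely above WT mouse 3. Its difference was 0.35 ± 0.13 (SE) and 0.19 without Mthfd1S+/- mouse 1; it was no longer at the unadjusted limit without WT mouse 2 or WT mouse 4 either. Axin2, a scaffold of the complex that degrades beta-catenin and the most used Wnt reporter, read 6.998, 7.39, 7.21 and 7.25 in WT mice and 7.58 and 7.35 in Mthfd1S+/- mice. The groups overlapped, since WT mouse 2 lay above Mthfd1S+/- mouse 2, and WT mouse 1 was the lowest. The difference was 0.26 ± 0.12 (SE; 95% interval -0.03 to 0.54), with 0.14 left without Mthfd1S+/- mouse 1 and 0.37 without mouse 2. The other cluster named Axin2 gave 0.05 ± 0.11.

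Notum, a secreted enzyme that removes the lipid from Wnt ligands, read 5.82, 5.28, 5.72 and 5.54 in WT mice and 6.197 and 5.51 in Mthfd1S+/- mice. Only mouse 1 was high, and the difference of 0.26 ± 0.21 (SE) became -0.081 without it and 0.61 without mouse 2. The other Notum cluster gave 0.17 ± 0.14. The ubiquitin ligase gene Rnf43 read 7.25, 7.58, 7.30 and 7.61 in WT mice and 7.61 and 7.12 in Mthfd1S+/- mice, so the Mthfd1S+/- animals held the highest and the lowest value. Its relative Znrf3 had a difference of 0.11 ± 0.11 (SE) with overlapping groups, and 0.039 without WT mouse 1. The 7 inhibitors thus differed by mouse: with each gene centred over the 6 mice, their mean was 0.39 in Mthfd1S+/- mouse 1 and 0.009 in mouse 2, against -0.14 to -0.080 in WT mice.

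**Figure D2:**
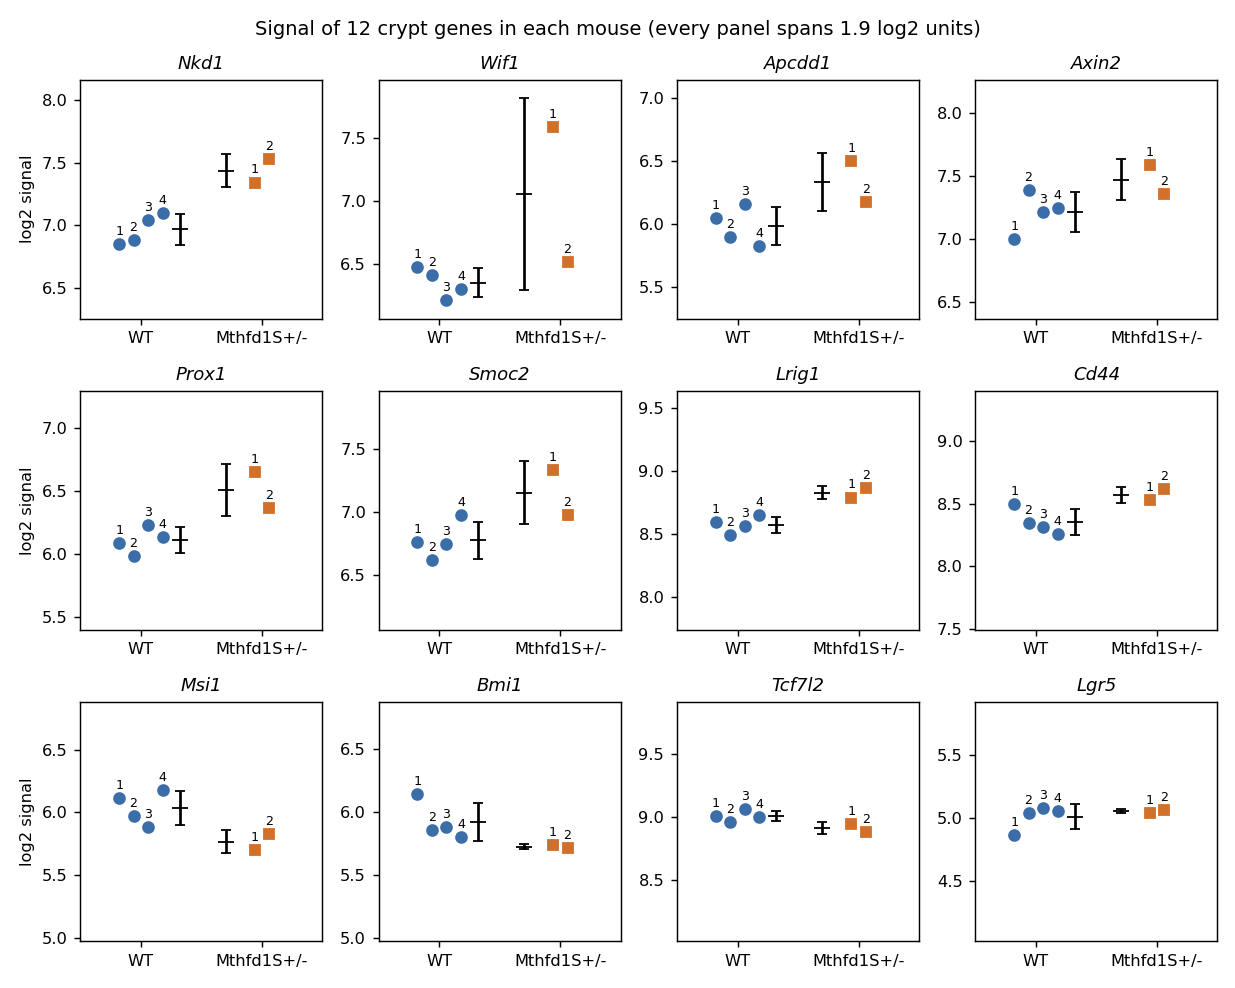
Log2 signal of 12 genes in each mouse (circles, 4 WT mice; squares, 2 Mthfd1S+/- mice; numbers are replicate numbers from the labels), with group mean and SD as black bars; every panel spans the same range. In Nkd1 and Lrig1 both Mthfd1S+/- mice sit above the WT mice, close together in Lrig1. In Wif1 only mouse 1 is far above, and in Lgr5 and Axin2 the groups overlap.

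Among the 8 crypt base stem cell genes, 7 were higher in Mthfd1S+/- mucosa and the median log2 difference was 0.17. Lgr5, the R-spondin receptor that marks cycling stem cells, read 4.86, 5.04, 5.08 and 5.05 in WT mice and 5.04 and 5.06 in Mthfd1S+/- mice. Apart from a lower WT mouse 1, the 6 mice were alike, and the difference was 0.043 ± 0.092 (SE; 95% interval -0.17 to 0.25). The other Lgr5 cluster gave 0.13 ± 0.16. Lgr5 had the lowest signal of the set, at percentile 31.4 of all tested clusters, and without detection calls a low signal cannot be told from background. Ascl2, the transcription factor that sets the Lgr5 stem cell state, read 5.54, 5.70, 5.60 and 6.195 in WT mice and 6.16 and 5.80 in Mthfd1S+/- mice. WT mouse 4 was the highest of all, and the difference of 0.22 ± 0.19 (SE) was 0.37 without it, 0.039 without Mthfd1S+/- mouse 1 and 0.40 without mouse 2.

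Smoc2, a secreted matrix protein found in Lgr5 stem cells and also in stroma, read 6.76, 6.62, 6.74 and 6.97 in WT mice and 7.33 and 6.97 in Mthfd1S+/- mice. Mthfd1S+/- mouse 2 and WT mouse 4 were almost level, and mouse 1 alone stood apart. The difference was 0.38 ± 0.13 (SE), or 1.30-fold (adjusted p 0.837 in limma), and 0.20 without Mthfd1S+/- mouse 1. Msi1, an RNA-binding protein of neural and intestinal progenitors, went the other way, with 6.11, 5.97, 5.88 and 6.18 in WT mice and 5.70 and 5.83 in Mthfd1S+/- mice. Both Mthfd1S+/- mice were below every WT mouse, by 0.27 ± 0.11 (SE) on average (95% interval of the difference -0.51 to -0.025, adjusted p 0.837 in limma). Msi1 was no longer at the unadjusted limit without WT mouse 1 or WT mouse 4, or after quantile normalization was repeated. Its difference was -0.205 without Mthfd1S+/- mouse 1. Tnfrsf19, a receptor of the tumour necrosis factor family and a Wnt target, had a difference of 0.30 ± 0.14 (SE), with the groups overlapping at WT mouse 4. Rgmb, a co-receptor for bone morphogenetic proteins, had 0.19 ± 0.13, Mex3a, an RNA-binding protein of slow-dividing Lgr5 cells, 0.16 ± 0.10, and Cdca7, a chromatin factor of dividing cells, 0.13 ± 0.11. Rgmb had 0.31 without Mthfd1S+/- mouse 1 and 0.070 without mouse 2, Mex3a had 0.083 without mouse 2, and Cdca7 had 0.19 without WT mouse 1.

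The 4 slow-cycling or reserve stem cell genes were split, 2 higher and 2 lower. Lrig1, a brake on epidermal growth factor receptors that marks colonic stem cells, read 8.59, 8.50, 8.56 and 8.65 in WT mice and 8.79 and 8.87 in Mthfd1S+/- mice. The groups were tight and did not overlap, with a difference of 0.25 ± 0.084 (SE), or 1.19-fold (adjusted p 0.837 in limma). It was 0.22 without Mthfd1S+/- mouse 2, where it no longer stood at the unadjusted limit. Bmi1, a Polycomb subunit, read 6.15, 5.86, 5.88 and 5.80 in WT mice and 5.74 and 5.71 in Mthfd1S+/- mice. Its groups did not overlap, yet WT mouse 1 stood well above the other WT mice; the difference was -0.20 ± 0.11 (SE) and -0.12 without that mouse. Hopx, a homeodomain-only protein of reserve stem cells and surface colonocytes, had 0.18 ± 0.10, and Tert, the catalytic part of telomerase, -0.039 ± 0.098, both with overlapping groups. Hopx had 0.27 without Mthfd1S+/- mouse 1 and 0.080 without mouse 2.

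Of the 7 measured Wnt targets and crypt position genes, 4 were higher and 3 lower. Prox1, a homeodomain factor that marks Wnt-driven colon adenomas and is also made by enteroendocrine and lymphatic cells, read 6.09, 5.98, 6.23 and 6.14 in WT mice and 6.65 and 6.36 in Mthfd1S+/- mice. Both Mthfd1S+/- mice were above every WT mouse, mouse 1 by more. The difference was 0.40 ± 0.11 (SE), or 1.32-fold (adjusted p 0.837 in limma); without Mthfd1S+/- mouse 1 it was 0.25 and no longer at the unadjusted limit. Cd44, the hyaluronan receptor of crypt base cells and leukocytes, read 8.50, 8.35, 8.31 and 8.26 in WT mice and 8.53 and 8.61 in Mthfd1S+/- mice. The gap between WT mouse 1 and Mthfd1S+/- mouse 1 was narrow, and the difference was 0.22 ± 0.094 (SE).

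Myc, which drives growth in crypt cells, read 8.21, 8.60, 8.25 and 8.25 in WT mice and 8.30 and 8.23 in Mthfd1S+/- mice. WT mouse 2 stood above the other 5 mice, which lay close together, and the difference was -0.064 ± 0.12 (SE; 95% interval -0.34 to 0.21). The other targets were near 0 with overlapping groups. Sp5, with the motifs shown above, had a difference of 0.047 ± 0.11 (SE), Ephb3, a receptor that keeps cells at their crypt position, 0.079 ± 0.088, Sox9, a factor of crypt progenitors, -0.051 ± 0.083, and the cyclin gene Ccnd1 -0.050 ± 0.097.

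The receptor and signal transducers differed least: 2 were higher and 3 lower, from -0.098 to 0.11, and none was at the unadjusted limit. Ctnnb1, which encodes beta-catenin, read 10.91, 10.67, 10.87 and 10.76 in WT mice and 10.76 and 10.70 in Mthfd1S+/- mice, all within the WT range. The difference was -0.073 ± 0.095 (SE; 95% interval -0.29 to 0.14). Transcript levels say nothing of the stability of beta-catenin protein, through which the pathway acts. Apc had -0.020 ± 0.080 (SE), and Lgr4, the R-spondin receptor found throughout the crypt, 0.084 ± 0.10.

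Tcf7l2, the main TCF factor of the intestinal epithelium, read 9.009, 8.965, 9.065 and 9.005 in WT mice and 8.945 and 8.882 in Mthfd1S+/- mice. Both Mthfd1S+/- mice were thus just below the WT mice. The difference was -0.098 ± 0.080 (SE). Lef1, a related factor of progenitors and lymphocytes, read 5.89, 5.69, 5.97 and 5.72 in WT mice and 6.21 and 5.64 in Mthfd1S+/- mice, the highest and the lowest value of the 6. Its difference of 0.11 ± 0.16 (SE) was 0.39 without Mthfd1S+/- mouse 2 and -0.18 without mouse 1.

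The 2 Mthfd1S+/- mice were set against the WT mean one by one. Of the 31 genes, 19 were above the WT mean in both mice, 7 below it in both and 5 on opposite sides; over all clusters 31.7% were above and 24.8% below in both. In 7 genes the Mthfd1S+/- mice differed from each other by more than the whole WT range: Smoc2, Notum, Rnf43, Wif1, Prox1, Lef1 and Apc. In 6 of these mouse 1 led by at least 0.29, and in Apc by 0.090. Mouse 1 was the higher of the pair in 19 of the 31 genes, while Nkd1, Tnfrsf19, Rgmb, Lrig1, Hopx and Cd44 were among those higher in mouse 2. Shares over all clusters were not computed for this count or for the 7 genes. Neither count can therefore be called particular to the set. Mthfd1S+/- mouse 1 held the highest value of the 6 mice in 8 genes (25.8%, against 19.5% of all clusters) and mouse 2 in 7 (22.6%, against 19.3%). WT mouse 1 held the lowest value in 12 genes (38.7%, against 19% of all clusters) and the highest in 6 (19.4%, against 17.9%).

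**Figure D3:**
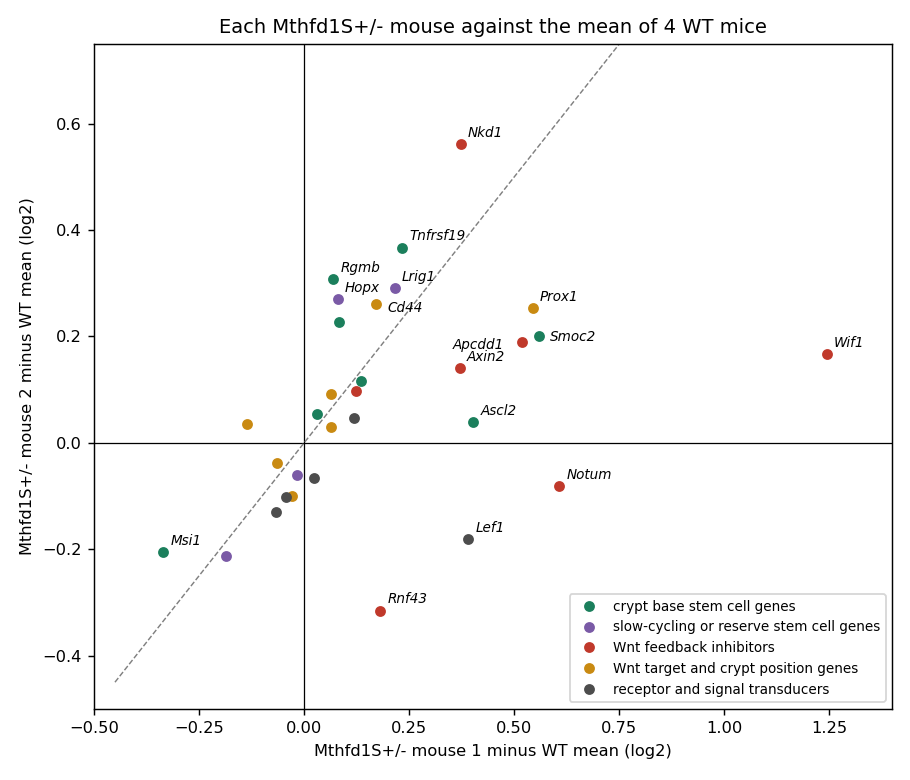
Difference from the mean of the 4 WT mice (log2) in Mthfd1S+/- mouse 1 (x axis) and mouse 2 (y axis) for the 31 genes, coloured by role; the dashed line marks equal values. Wif1, Notum, Lef1 and Rnf43 lie far below the line, Notum, Lef1 and Rnf43 have opposite signs in the 2 mice, and Nkd1 is high in both.

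The mouse identifiers in the labels begin with A or B, and each letter holds both genotypes; the labels do not say what the letter stands for. Within A (Mthfd1S+/- mouse 1 and WT mouse 1) and within B (mouse 2 and WT mice 2 to 4), 16 genes were higher in the Mthfd1S+/- mouse in both, 6 were lower in both and 9 had opposite signs. These are 51.6% and 19.4% of the set, against 29% and 24.1% of all clusters. For Nkd1 the values were 0.49 within A and 0.52 within B. For Prox1 they were 0.57 and 0.25, for Smoc2 0.57 and 0.20, for Lrig1 0.20 and 0.30, and for Wif1 1.12 and 0.21. For Axin2 they were 0.58 and 0.069, and for Ascl2 0.62 and -0.033. Each letter holds only 1 Mthfd1S+/- mouse, so neither set of values has a replicate check of that genotype. Within A the WT side also rests on 1 mouse.

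Markers of other cell types moved between the same mice. All 12 smooth muscle markers had a higher mean in Mthfd1S+/- mucosa, with gene-centred list means of -0.25 to 0.12 in WT mice and of -0.060 and 0.40 in Mthfd1S+/- mice 1 and 2. All 10 markers of enteric neurons and glia were higher as well (-0.36 to 0.16 in WT, 0.060 and 0.35), as were all 13 enteroendocrine markers (-0.24 to 0.064, 0.046 and 0.26) and 10 of 11 fibroblast markers (-0.27 to 0.12, 0.027 and 0.19). Of 15 epithelial markers 13 were lower, with list means of 0.002 and -0.095 in Mthfd1S+/- mice 1 and 2 against -0.004 to 0.067 in WT. None of these markers passed the adjusted threshold in limma. At an unadjusted p under 0.05 in limma stood 3 of the nerve and glia markers, 2 of the fibroblast and 1 of the muscle markers, all higher. No enteroendocrine or epithelial marker was at that limit, and the background was 3.36% of all clusters higher. Other lists held lower markers at that limit, where the background was 2.44% of all clusters lower. These were 1 of 8 goblet, 1 of 10 T and NK, 2 of 7 B and plasma cell and 2 of 6 adipocyte markers. Muscle, nerve, enteroendocrine and fibroblast means were highest in Mthfd1S+/- mouse 2, as were Nkd1, Lrig1 and Cd44, while the mean of the feedback inhibitors, Smoc2 and Prox1 were highest in mouse 1.

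Markers of dividing cells showed another order. Of 11 measured, 6 were higher and 5 lower, with list means of 0.18 and 0.16 in WT mice 1 and 2, -0.12 and -0.22 in WT mice 3 and 4, and 0.14 and -0.14 in Mthfd1S+/- mice 1 and 2. Markers of T and NK cells, which can express Lef1 and Cd44, had list means of -0.11 to 0.084 in WT mice and -0.030 and 0.025 in Mthfd1S+/- mice. Endothelial markers, most of them of blood vessels, had -0.13 to 0.16 in WT and -0.013 and 0.063 in Mthfd1S+/- mice. Lymphatic vessels express Prox1, and their markers in this list were Lyve1, Flt4 and Pdpn. The log2 differences of these markers were 0.21 ± 0.13 (SE), 0.10 ± 0.12 and -0.0097 ± 0.091.

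Adjusted for the smooth muscle mean, the log2 difference was 0.33 for Nkd1, 0.44 for Prox1, 0.40 for Smoc2, 0.47 for Apcdd1 and 1.10 for Wif1, and these 5 stayed at the unadjusted limit. Lrig1 had 0.20 and was no longer there. Adjusted for the epithelial mean, the values were 0.41 for Nkd1, 0.60 for Prox1, 0.53 for Smoc2, 0.62 for Apcdd1 and 1.12 for Wif1. Lrig1 had 0.22 and again was no longer there. The muscle mean was highest and the epithelial mean lowest in Mthfd1S+/- mouse 2. These fits therefore cannot tell genotype and tissue make-up apart. Adipocyte markers varied most, from -0.31 to 1.08 in WT mice, and were at -0.54 and -0.40 in Mthfd1S+/- mice; their part in the results was not tested.

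**Figure D4:**
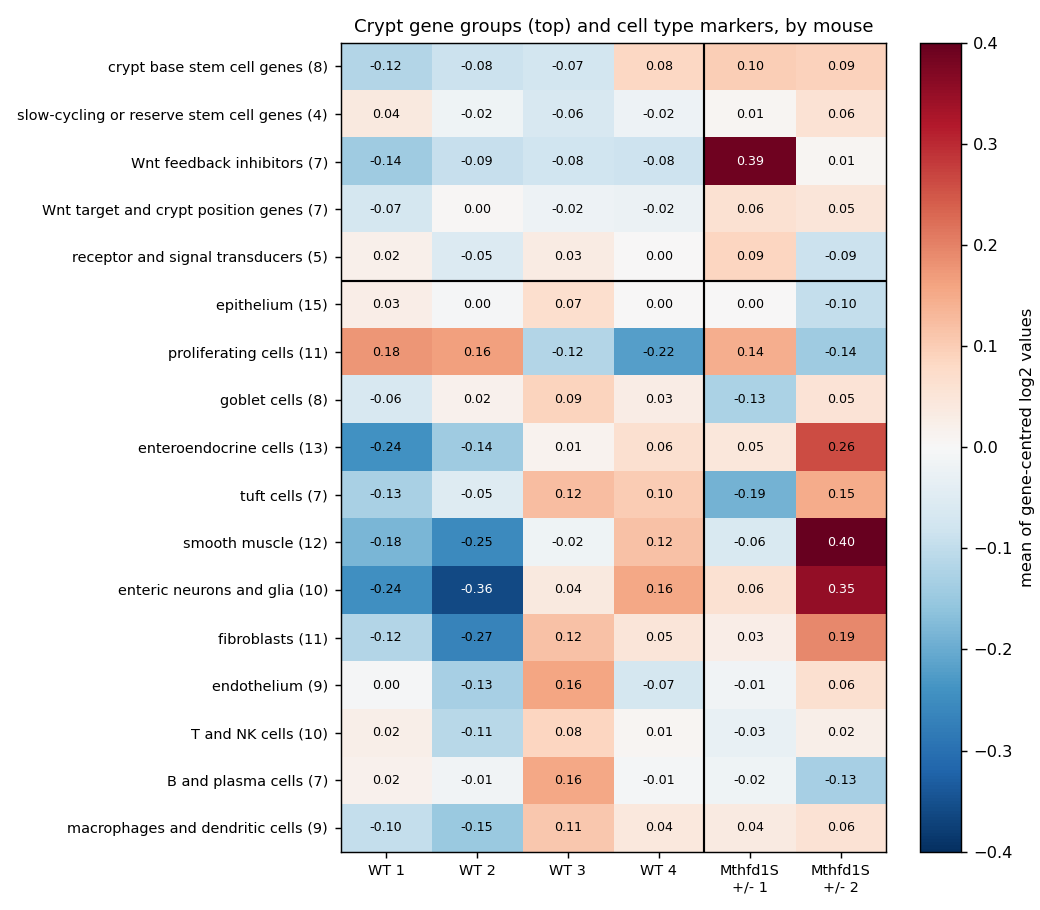
Mean of gene-centred log2 values in each mouse (columns) for the 5 gene groups (above the line) and for markers of 12 cell types or states (below it), with the number of measured genes in brackets. The feedback inhibitors are high in Mthfd1S+/- mouse 1 (0.39) and the smooth muscle and nerve markers in mouse 2 (0.40 and 0.35).

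Of 79 other genes of the Wnt pathway, listed by role, 77 were measured; 56 had a higher (72.7%, against 54% of all clusters) and 21 a lower mean in Mthfd1S+/- mucosa, with a median log2 difference of 0.044 against 0.012 over all clusters. Only Sfrp1, a secreted inhibitor made by stroma, was at an unadjusted p under 0.05. This is 1 higher gene (1.30%, background 3.36%) and 0 lower ones (background 2.44%), and 0 passed the adjusted threshold in limma (smallest adjusted p 0.837). The higher count was 0 without WT mouse 1 or WT mouse 2, 2 without WT mouse 3, 3 without WT mouse 4 and 4 without Mthfd1S+/- mouse 1. Sfrp1 read 8.49, 8.35, 8.72 and 8.66 in WT mice and 8.75 and 9.01 in Mthfd1S+/- mice, a difference of 0.32 ± 0.13 (SE). Both Mthfd1S+/- mice were above the WT mice, mouse 1 only just.

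The ligands and R-spondins were 15 higher and 10 lower (median 0.033), with Wnt2b, a stromal ligand, at 0.24 ± 0.12 (SE). Of the receptors 15 of 16 were higher (median 0.11); the Frizzled gene Fzd1 had 0.17 ± 0.092, with both Mthfd1S+/- mice above the WT mice. Their gene-centred mean was highest in Mthfd1S+/- mouse 2 (0.096) and WT mouse 4 (0.089), the mice with the highest muscle means. Of the secreted inhibitors 8 of 11 were higher (median 0.050), with Dkk3 at 0.27 ± 0.14. Of the cytoplasmic and nuclear components 18 of 25 were higher (median 0.028). Nkd2, the relative of Nkd1, read 6.94, 7.09, 6.87 and 7.20 in WT mice and 7.09 and 7.56 in Mthfd1S+/- mice; mouse 2 alone was high, and the difference was 0.31 ± 0.15 (SE). Adjusted for the smooth muscle mean, 37 of the 77 were above 0 and the median was -0.0017. This fit, too, cannot tell genotype and tissue make-up apart.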

How the data were processed

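Total RNA of colonic mucosa from 6 mice (4 WT, 2 Mthfd1S+/-) was measured on Affymetrix arrays. The authors deposited log2 values for each transcript cluster; per the submitters' processing notes these came from Affymetrix Expression Console, whose version, algorithm and genome build no source used here gives. The range of 1.06 to 13.5 was taken to show a log2 scale. Changes removed by the authors' normalization cannot be seen, and detection calls were not used.

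Of 41345 clusters, 23521 with 1 gene symbol in the platform table were tested; 1814 with several and 16010 with none were left out. The genotypes were compared in R 4.3.3 by limma 3.58.1 (lmFit and eBayes; two-sided; without covariates; 4 residual degrees of freedom, 4.35 prior) with Benjamini-Hochberg adjustment over all tested clusters. The number of arrays limits the precision (median SE 0.106). The labels call the arrays biological replicates. A single gene's exact permutation test over 4 and 2 mice could give no p below 0.0667 and was not used. The fit was tested on simulated data with planted changes larger than any difference in the set. That test does not show how well differences of the size reported here are detected. Members and lists were chosen with earlier results of these data known. All members are named; full values are given for Lgr5, Ascl2, Axin2, Myc, Ctnnb1 and members at an unadjusted p under 0.05 or with groups apart; those of Notum, Rnf43 and Lef1 were added after they were seen, and of the other pathway genes up to 3 per list with the smallest p could be named. Alternatives were each mouse left out, scaling, filter, rows tested, variance model, cluster per gene, replicate number, identifier letter, and muscle and epithelial means as covariates.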

Additional observations from a re-analysis of the deposited data

Results flagged for a closer look

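Myc in WT mouse 2 read 8.60 on the log2 scale, against 8.21 to 8.25 in the other 3 WT mice. The gap made up 0.899 of the WT range, above Dixon's critical value for 4 samples. It was the only such value among the 31 genes, and chance picks about 5% of groups. Without this mouse the Myc difference was 0.026 in place of -0.064.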

How the results depend on the processing

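No gene passed the adjusted threshold in limma in the set, among the other pathway genes or among all clusters under any alternative run. Counts below are at an unadjusted p under 0.05. Leaving out each mouse in turn gave 588 to 1083 higher and 477 to 849 lower clusters in all, 2 to 8 higher and 0 to 1 lower genes of the set, a median of 0.0552 to 0.126 for the set with 20 to 23 genes above 0, and 0 to 4 higher and 0 to 1 lower genes of the other pathway genes, with a median of 0.0377 to 0.0701 and 48 to 56 above 0. With the replicate number as a block there were 1316 higher and 1015 lower clusters, 10 higher and 0 lower genes of the set and 5 higher genes of the other pathway genes; deviations of equal-numbered mice correlated at 0.117 and -0.044 over 2 pairs, so the numbers are not taken to pair the mice. Centred arrays gave 521 higher and 868 lower clusters. With clusters above the median level these were 355 and 320, as fewer clusters were tested. Over all rows 935 were higher and 1665 lower (36.0% higher). The lower count of the set was 0 after repeated quantile normalization, above the median level (Msi1 was not among those tested) and with unmoderated least squares, where the higher count was 3. Of the other pathway genes, 3 were higher with the identifier letter and 2 with the epithelial mean as a covariate, 0 over all rows, and 1 was lower with the smooth muscle mean, where 37 were above 0 and the median was -0.0017. Of 490 gene values under alternatives, 0 turned a call at the unadjusted limit to the other direction, 19 lost it and 21 gained it. Another 13 values with no call moved by more than 1 SD between replicates, 5 of them to the other sign (Notum, Lef1, Rnf43 and Apc). With smaller moves counted too, 15 of the 490 values changed sign, also in Lgr5, Tert, Sp5, Myc, Ccnd1 and Ctnnb1. The epithelial covariate gave 0.71 for Notum and 0.47 for Lef1. The cause of these changes was not tested unless stated. Low signals, as for Lgr5, limit what can be read.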
